A study of Mus musculus with 7 samples.

Results

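Interferon-responding T cells are T cells that carry transcripts of genes switched on by interferon. Here they were selected on measured Isg15, Ifit1 and Ifit3 transcripts: T cell barcodes of the inflamed mouse central nervous system that held at least 2 unique molecular identifiers (UMIs, each counted as 1 captured transcript) of Isg15 and at least 1 UMI of Ifit1 or Ifit3. A barcode counted as a T cell with at least 2 UMIs summed over Cd3d, Cd3e and Cd3g, at most 120 UMIs per 10000 over the myeloid and antigen-presenting genes Lyz2, C1qb and Cd74, and no UMI of Ikzf2 (high in many regulatory T cells), Cd8a or Cd163l1 (a gene of gamma delta T cells). The rule found 437 cells among 4353 gated T cells, in 13632 barcodes that passed 200 genes and 10% mitochondrial UMIs, out of 13922 barcodes in all. They were set against the 2814 gated T cells that held no UMI of Isg15, Ifit1 or Ifit3, called interferon-low T cells below. The remaining gated T cells, which held some of these transcripts but missed the rule, were in neither class.

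The series compared mice lacking the inhibitory receptor LAG3 (Lag3KO; genotype label Lag3Floxed) with wild-type mice (WT; label Lag3wt), both on the B6 strain and both immunized with MOG35-55, a myelin peptide that induces experimental autoimmune encephalomyelitis, and both taken at the peak of disease. The sources name neither the deleted exons, nor a Cre line, nor the age of the mice. Cells of the central nervous system were enriched with beads for CD4 or for CD45, the marker of all leukocytes. The libraries were Lag3KO_CD4 (n = 2), Lag3KO_CD45 (n = 1), WT_CD4 (n = 2) and WT_CD45 (n = 2), with 5 mice per group in the labels, which do not say which mice went into which library. The p-values below therefore measure the spread between libraries, which may be technical.

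Type I interferons bind the receptor IFNAR1 and IFNAR2, whose kinases JAK1 and TYK2 activate transcription factors, among them STAT2. STAT2 joins IRF9 in a complex that binds the interferon-stimulated response element in the promoters of antiviral genes. ISG15 is a ubiquitin-like protein that is joined to other proteins, and IFIT1 and IFIT3 bind viral RNA or support that binding. In T cells interferon also acts on growth, survival and cytokine production, and in this disease of the central nervous system type I interferon is known to act on the myeloid cells that present myelin.

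The promoters of the 3 genes that chose the cells are shown because each held the core of that response element. The letters searched were GAAANNGAAA on either strand (TTTCNNTTTC on the other), in 250 bases before and 50 bases after each gene's start from RefSeq, assembly GRCm38.p6. The 200 bases before the start are printed in the direction of transcription, with every match in capitals.
Isg15, chr4:156200819-156201018, minus strand: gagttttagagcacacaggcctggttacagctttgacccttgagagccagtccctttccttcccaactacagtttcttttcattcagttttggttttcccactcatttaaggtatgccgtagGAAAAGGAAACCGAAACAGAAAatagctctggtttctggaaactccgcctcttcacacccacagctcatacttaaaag
Ifit1, chr19:34640689-34640888, plus strand: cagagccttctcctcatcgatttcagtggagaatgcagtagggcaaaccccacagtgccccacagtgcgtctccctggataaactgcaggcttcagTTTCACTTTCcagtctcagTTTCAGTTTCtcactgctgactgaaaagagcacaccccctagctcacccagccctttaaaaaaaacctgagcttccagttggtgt
Ifit3, chr19:34583329-34583528, plus strand: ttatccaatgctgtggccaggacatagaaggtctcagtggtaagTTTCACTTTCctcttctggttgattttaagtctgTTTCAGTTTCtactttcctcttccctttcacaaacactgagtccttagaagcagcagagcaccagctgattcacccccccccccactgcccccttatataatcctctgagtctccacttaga
Isg15 held 3 overlapping matches, Ifit1 held 2 and Ifit3 held 2. A match is a description of the letters and not a measured binding site. In GENCODE M21 on GRCm38 the protein-coding genes lie at chromosome 4, 156199424 to 156200818 (Isg15), chromosome 19, 34640871 to 34650009 (Ifit1) and chromosome 19, 34583531 to 34588731 (Ifit3). The GENCODE starts of Ifit1 and Ifit3 differ by some bases from the RefSeq starts used for the promoters.

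The libraries held 4585251 to 18940186 UMIs, and the depth differed between the enrichments. The interferon-responding cells of a library held 124618 to 457362 UMIs in all, against 491927 to 1872284 for the interferon-low T cells. Xist was at 813 to 1067 UMIs per 1000000 (CPM) in interferon-responding cells of the CD4 libraries and at 0 in those of the CD45 libraries, and Ddx3y and Eif2s3y, genes of the Y chromosome, were at 0 in the CD4 libraries only. Enrichment, sex, depth and batch thus cannot be told apart, and the enrichment was a term or a block of every model over both. In 1 library a label was contradicted: the library labelled WT_CD45 2 held no Lag3 UMI in either T cell class, like the 3 Lag3KO libraries. Of 13536 distinct barcode sequences 96 occurred in more than 1 library, 8 interferon-responding cells had such a barcode, and 2 barcodes were shared by interferon-responding cells of a pair of libraries.

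Interferon-responding cells were found in every library, at 6.27% to 13.2% of gated T cells. In Lag3KO_CD4 they were 10.3% (78 cells, 95% Clopper-Pearson interval 8.26 to 12.7) and 13.2% (144 cells, 11.3 to 15.4), and in Lag3KO_CD45 9.30% (20 cells, 5.78 to 14.0). In WT_CD4 they were 6.27% (65 cells, 4.87 to 7.92) and 10.7% (81 cells, 8.55 to 13.1), and in WT_CD45 11.1% (23 cells, 7.18 to 16.2) and 8.93% (26 cells, 5.92 to 12.8; the library labelled WT_CD45 2). The intervals cover counting error only. The highest and the lowest share were both in CD4 libraries, and the genotypes overlapped. With at most 30 UMIs per 10000 over Lyz2, C1qb and Cd74 (the stricter myeloid limit) the shares were 9.78% and 13.1% in Lag3KO_CD4, 5.48% in Lag3KO_CD45, 5.85% and 10.4% in WT_CD4, and 6.47% and 5.29% in WT_CD45. That limit left 8 interferon-responding cells in Lag3KO_CD45 and 9 and 12 in WT_CD45, and the CD45 shares were thus more than 1.5 times lower than under the main rule.

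The Lag3KO share was 1.97 percentage points above the WT share within enrichments (two-sided exact permutation within enrichment, p = 0.5, 18 arrangements). The smallest possible p was 0.0556, so these libraries could not pass a threshold of 0.05 whatever their shares. The difference was 3.32 points in the CD4 libraries and -0.721 points in the CD45 libraries, so its direction was not shared. The difference was 0.451 points under a stricter interferon limit (at least 3 Isg15 UMIs and 2 of Ifit1 and Ifit3), 3.81 points under a looser one (at least 1 of each) and 3.58 points in cells of 2000 to 5000 UMIs. It was 0.511 points without WT_CD4 1, 3.44 without WT_CD4 2, 0.581 without Lag3KO_CD4 2, 3.32 without Lag3KO_CD45 1 and 1.61 without the library labelled WT_CD45 2.

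A rule that asks for at least 2 UMIs is met more often by deeply sequenced cells. The median depth of interferon-responding cells was 2469 to 3184 UMIs in CD4 libraries, against 1787 to 2302.5 for interferon-low T cells, and 4828 to 5613 in CD45 libraries, against 3263 to 3538.5. With every cell thinned to 1500 UMIs, which left out 729 shallower gated T cells of the CD4 libraries and none of the CD45 libraries, the expected share was 5.32% and 8.73% in Lag3KO_CD4, 2.52% in Lag3KO_CD45, 3.80% and 6.51% in WT_CD4, and 3.33% and 3.64% in WT_CD45. At equal depth each CD4 library thus lay above each CD45 library, which was not so before thinning. The thinned difference between genotypes was 0.924 points (exact permutation p = 0.667).

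**Figure D1:**
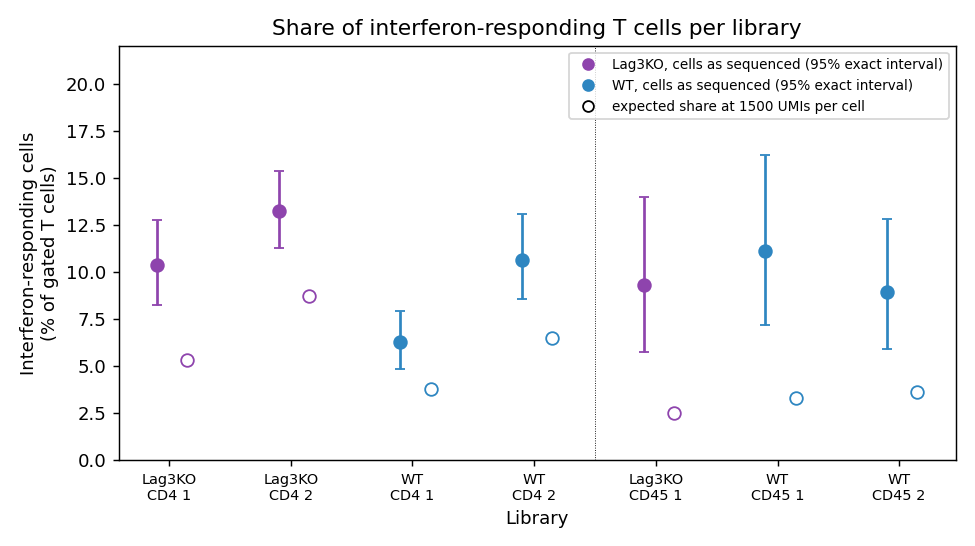
Share of interferon-responding cells among gated T cells (percent, y axis) in each library (x axis; CD4 libraries left of the dotted line, CD45 libraries right of it). Filled points give the share as sequenced with its 95% Clopper-Pearson interval, and open points the expected share at 1500 UMIs per cell; the Lag3KO and WT points overlap, and thinned shares run from 2.52% to 8.73%.

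The same 2 conditions on Isg15 and on Ifit1 or Ifit3 were met by other cells. Thinned to 1500 UMIs, 2.01% to 10.7% of T cells with an Ikzf2 UMI met them per library, and 2.31% to 11.7% of myeloid barcodes (above 300 UMIs per 10000 over Lyz2, C1qb and Cd74, with no Cd3 UMI). B cell barcodes of the CD45 libraries (at least 3 UMIs of Cd79a and Cd79b, no Cd3 UMI) met them in 0.410% of 69 in Lag3KO_CD45 and in 0.630% of 43 and 0.869% of 55 in WT_CD45, at median depths of 3194, 3484 and 3216 UMIs. At the same thinned depth the gated T cells of the CD45 libraries met them in 2.52% to 3.64%, above the B cell barcodes. As sequenced, only 2 B cell barcodes met them in Lag3KO_CD45, and 1 and 2 in WT_CD45. The part of free RNA in any of these shares was not tested.

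The transcripts that chose the cells are given as a description with no test, since the rule used them. Of the 437 cells, 129 had 2 Isg15 UMIs, 141 had 3 or 4 and 167 had 5 or more, up to 30. Both Ifit1 and Ifit3 were found in 231 cells, Ifit1 alone in 152 and Ifit3 alone in 54. Isg15 ran from 883 through a median of 1218 to 1539.5 CPM over the 7 libraries, Ifit1 from 257 through 599.9 to 929 CPM and Ifit3 from 152 through 329 to 603 CPM. The lowest level of all 3 was in Lag3KO_CD45 1. The highest Ifit1 and Ifit3 levels were in Lag3KO_CD4 2, and the highest Isg15 level was in the library labelled WT_CD45 2.

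Zbp1, a sensor of Z-form nucleic acid that can trigger cell death and is the marker of the label that the rule did not use, was carried by 80.8% of interferon-responding cells and 26.3% of interferon-low T cells. The levels of Zbp1 in interferon-responding cells were 502 and 680.0 CPM in Lag3KO_CD4, 449 CPM in Lag3KO_CD45, 542 and 662 CPM in WT_CD4, and 407 and 453 CPM in WT_CD45. Interferon-low T cells had 87.6 to 169 CPM of Zbp1, with a median of 125 CPM. The classes did not overlap, and Zbp1 was higher by 2.12 ± 0.10 on the log2 scale (SE; edgeR quasi-likelihood, adjusted p = 2.62e-13). Zbp1 lies at chromosome 2, 173206612 to 173218923 (GRCm38).

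The load of other antiviral transcripts, summed over 43 interferon-induced antiviral genes apart from the 3 of the rule, was measured in each cell. Abundant genes weigh most in this sum. Over libraries the median level in interferon-low T cells was 1602 CPM for Ly6e, 1573 for Ly6a and 1147 for Ifi27l2a, against 7455 for the 43 genes summed. In interferon-responding cells it was 2047, 2460 and 3089 CPM, against 16870. The 43 include Ifit3b, a near copy of Ifit3 that can share its reads. The median load was 191 UMIs per 10000 in interferon-responding cells and 72.1 in interferon-low T cells. In the CD4 libraries the medians were 194 and 74.4, and in the CD45 libraries 154 and 58.9. Per library 46.2% to 73.1% of interferon-responding cells lay above the 95th percentile of the interferon-low T cells of that library, and the rest lay at or below it. This percentile is not the upper end of the interferon-low T cells. In every library the upper quartile of interferon-responding cells lay below the highest load of an interferon-low T cell.

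At the edge of the rule the load varied by library. The 47 cells just inside it, with 2 Isg15 UMIs and 1 Ifit1 or Ifit3 UMI, had a median load of 139.6. Just outside it, 206 cells with 1 Isg15 UMI and at least 1 Ifit1 or Ifit3 UMI had a median load of 150.5, and 176 cells with at least 2 Isg15 UMIs but neither Ifit had 128. In the CD4 libraries the medians were 143 inside and 159 and 130.2 outside, and in the CD45 libraries 128 inside and 90.3 and 121 outside. The median inside was above both outside medians in 3 of 7 libraries (WT_CD4 1, Lag3KO_CD45 1 and WT_CD45 1), each library having 3 to 15 cells just inside.

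**Figure D2:**
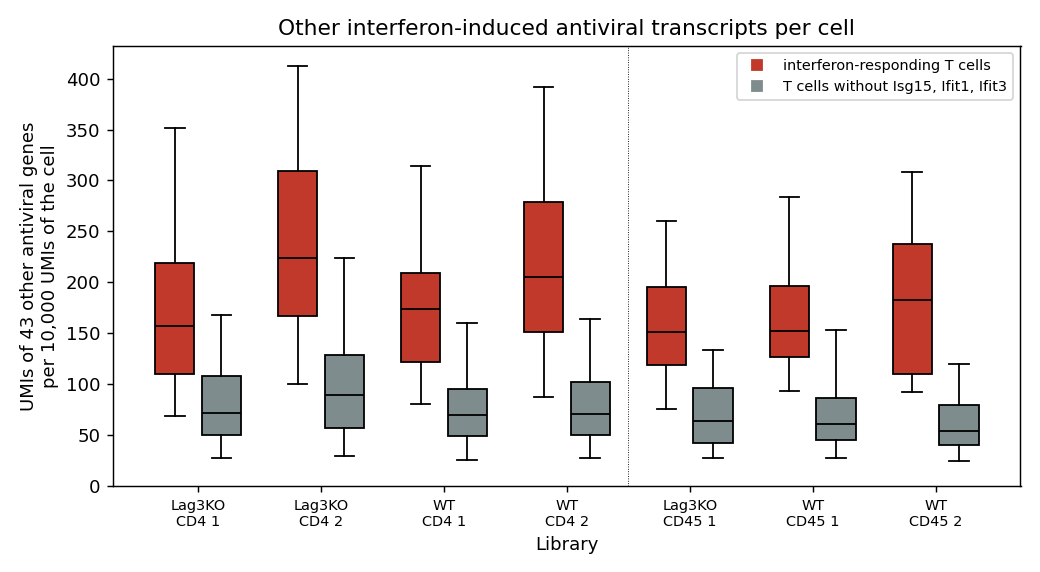
UMIs of 43 antiviral genes apart from Isg15, Ifit1 and Ifit3, per 10000 UMIs of the cell (y axis), in each library (x axis), for interferon-responding T cells (red) and interferon-low T cells (grey). Boxes give the quartiles and median and whiskers the 5th and 95th percentiles of cells; medians run from 152 to 224 in interferon-responding cells and from 54.1 to 89.7 in interferon-low T cells.

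Genes outside the rule were then compared between the classes in summed UMIs of each library, with the library as a block. Of 6484 genes tested 572 passed an adjusted p of 0.05 in edgeR (8.82%), 446 higher (6.88%) and 126 lower (1.94%) in interferon-responding cells, with a median log2 difference of -0.02 over all tested genes. The classes were made from interferon transcripts in the same cells, so higher levels of other interferon genes describe which transcripts occur together. Groups were read against the shares of all tested genes.

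Transcripts of myeloid cells were also higher in interferon-responding cells. Of 21 tested myeloid markers 18 were higher and 0 lower, with a median log2 difference of 1.38. The summed level of the 25 measured markers was 2158 to 5734 CPM in interferon-responding cells and 1334 to 2225 CPM in interferon-low T cells of the CD4 libraries, and 18253 to 25622 CPM and 7327 to 10842 CPM in those of the CD45 libraries. Tyrobp, an adaptor of myeloid and natural killer receptors, differed by 1.81 ± 0.23 (adjusted p = 3.28e-06), but by -0.31 (adjusted p = 0.854) in edgeR when cells above 30 UMIs per 10000 over Lyz2, C1qb and Cd74 were left out. Microglia markers were higher in 3 of 8, Tmem119 and Olfml3 among them. Counts of the other groups are therefore given also from a further comparison, chosen after the data were seen, of CD4 library cells with at most 2 UMIs over 28 myeloid genes (31 and 64 interferon-responding cells in Lag3KO_CD4, 25 and 32 in WT_CD4). Among those cells 156 of 5065 genes passed, and the choice itself limits their myeloid markers.

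Antiviral effectors made up most of the leading genes. Of 41 tested genes 39 were higher and 0 were lower, with a median log2 difference of 1.95. The 39 higher genes include Ifit3b, a near copy of the rule's Ifit3. Of the 41, 40 had at least 10 UMIs in interferon-low T cells, but interferon-responding cells alone could meet the count filter. Rsad2, Mx1, Oasl1 and Cmpk2 reached at most 10.2, 12.2, 4.07 and 11.5 CPM in interferon-low T cells. They entered the test through the class where they were high. So did other genes scarce in interferon-low T cells, among them Ifit2, Oas3, Usp18, Slfn5, Mnda, Trim30d, Ifi204, Dhx58 and Ifih1. Their calls held with no filter on low counts. Among cells low in myeloid RNA 33 of 39 were higher. Ifitm1 (0.52 ± 0.34, adjusted p = 0.462) and Ifitm2 (0.26 ± 0.15, adjusted p = 0.398), which encode membrane proteins that block viral entry, were the exceptions, and both passed as lower among the cells low in myeloid RNA.

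Rsad2, which encodes the antiviral enzyme viperin, had the largest difference. Its level over the 7 libraries was 88.3, 116 and 195 CPM (lowest, median, highest) in interferon-responding cells and 0, 4.30 and 10.2 CPM in interferon-low T cells, 5.11 ± 0.30 higher on the log2 scale (adjusted p = 1.43e-11). Rsad2 did not overlap between classes. Ifit3b can share reads with Ifit3, which chose the classes, so its levels of 17.7, 60.9 and 160 CPM in interferon-responding cells and 0, 2.03 and 6.18 CPM in interferon-low T cells are a description with no test. Among the 15 higher genes with the largest differences Ifit1bl1, an Ifit family member, overlapped in level between the classes. These genes were chosen for large differences of the same sign in every library. Ranges that do not overlap follow largely from that choice, so no count of them is given.

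Mx1, a GTPase that blocks viruses in mice with a working allele, had 36.5, 70.9 and 134 CPM in interferon-responding cells and 1.07, 2.87 and 12.2 CPM in interferon-low T cells (4.27 ± 0.32, adjusted p = 7.12e-10). Oasl1 (4.70 ± 0.44), Oasl2 (3.35 ± 0.16) and Oas3 (3.04 ± 0.21) belong to the oligoadenylate synthetase family, which senses double-stranded RNA, and were higher in edgeR (adjusted p at most 3.8e-08). Oasl1 rested on 62 UMIs in interferon-responding cells and 9 in interferon-low T cells. Cmpk2, a mitochondrial nucleotide kinase next to Rsad2 on chromosome 12, was higher by 3.84 ± 0.22.

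Broad effectors had high levels in both classes. Ifi27l2a, an interferon-induced mitochondrial or membrane protein, had 3048, 3089 and 7027 CPM in interferon-responding cells and 1047, 1147 and 2477 CPM in interferon-low T cells (1.55 ± 0.06, adjusted p = 8.92e-14), with no overlap. Bst2 (tetherin, which holds budding virus at the membrane) had 554, 808 and 866 CPM against 191, 245 and 270 CPM (1.68 ± 0.09, adjusted p = 7.72e-12). Isg20, an exonuclease that degrades RNA, had 233, 314 and 413 CPM against 55.1, 71.1 and 82.4 CPM (2.12 ± 0.11). Ly6a, a surface antigen of activated mouse T cells that interferon induces, was higher by only 0.67 ± 0.07 (adjusted p = 1.5e-07) and overlapped between classes.

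**Figure D3:**
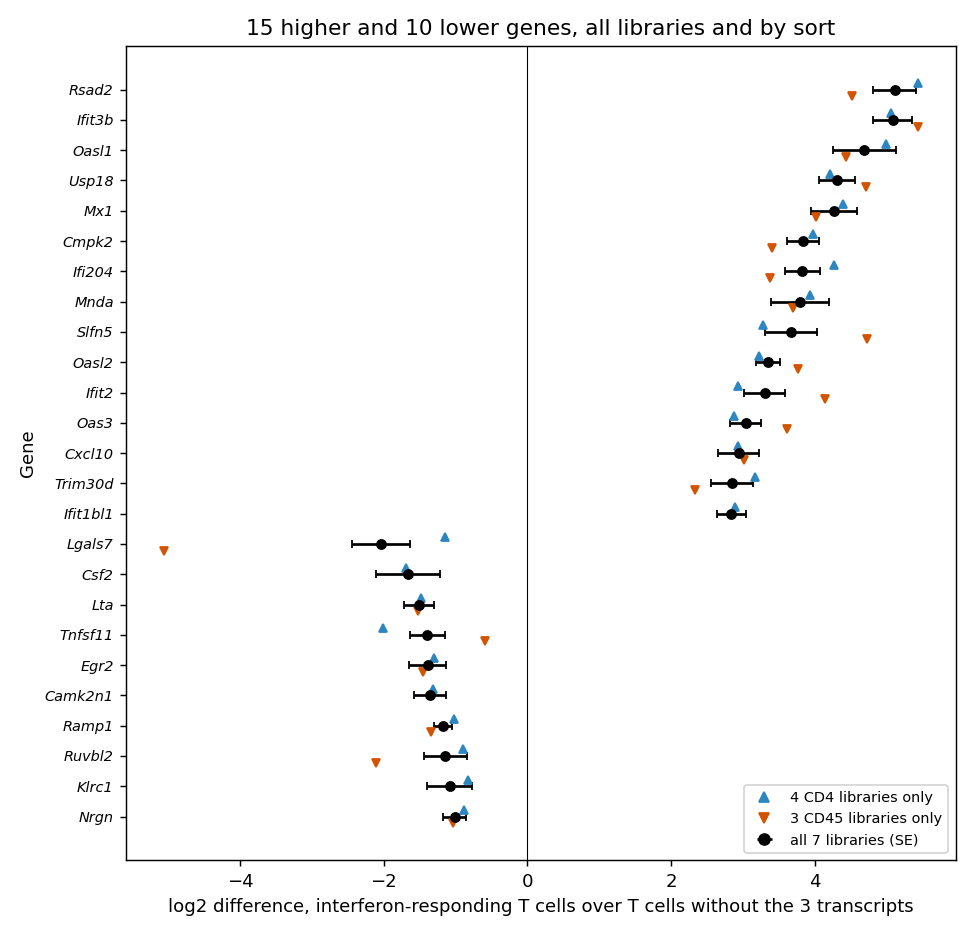
log2 difference of interferon-responding over interferon-low T cells (x axis) for the 15 higher and 10 lower genes with the largest differences (y axis). Black points give all 7 libraries with their SE, blue triangles the 4 CD4 libraries and orange triangles the 3 CD45 libraries; the higher genes run from 2.84 to 5.11 and the lower ones from -1.01 to -2.04.

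Sequence of the leading genes is shown because the response element recurred among them. The core was in 58 of 324 promoters of higher genes (17.9%) and in 1 of 99 of lower genes (1.01%), against 189 of 5021 of all tested genes (3.76%) and 943 of 27025 of all promoters (3.49%). It was in 7 of 11 of the named higher genes with a promoter in the RefSeq table and in 0 of 9 of the named lower genes. Windows of 34 bases around the match nearest each start are given below in the direction of transcription, from the same assembly, with matches in capitals.
Rsad2, chr12:26456551-26456584, minus strand: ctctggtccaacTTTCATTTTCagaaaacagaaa
Ifit3b, chr19:34607791-34607824, plus strand: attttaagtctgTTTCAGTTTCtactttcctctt
Slfn5, chr11:82951935-82951968, plus strand: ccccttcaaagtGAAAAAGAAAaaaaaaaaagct
Oas3, chr5:120777713-120777746, minus strand: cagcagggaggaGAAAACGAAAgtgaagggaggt
Cxcl10, chr5:92349081-92349114, minus strand: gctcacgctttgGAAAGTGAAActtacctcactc
Trim30d, chr7:104507869-104507902, minus strand: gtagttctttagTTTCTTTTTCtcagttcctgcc
Ifit1bl1, chr19:34602051-34602084, minus strand: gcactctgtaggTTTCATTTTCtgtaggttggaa
Stat2, chr10:128270264-128270297, plus strand: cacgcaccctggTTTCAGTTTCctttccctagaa
Bst2, chr8:71537575-71537608, minus strand: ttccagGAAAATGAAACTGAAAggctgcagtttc
The Ifit3b window has the same letters as the Ifit3 promoter printed above. Stat2 and Bst2 come from 6 further genes that were looked up because the text describes them, and the other 4, Irf7, Irf9, Isg20 and Xaf1, held no match. Nor did Oasl1, Oasl2, Cmpk2 and Ifit2 among the leading genes, which says only that these letters are not in that window.

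Of 9 interferon genes measured, Ifng was the only one with a UMI in either class, and the type I interferon genes Ifnb1 and Ifna4 had 0 UMIs in all 7 libraries. Ifng was found in 16.7% of interferon-responding cells and 13.9% of interferon-low T cells. Ifng, the T cell interferon, had 32.1, 70.9 and 424 CPM in interferon-responding cells and 93.3, 169 and 345 CPM in interferon-low T cells, a difference of -0.82 ± 0.22 (adjusted p = 0.0196) with overlapping ranges. This call was lost in 6 of 17 alternatives, among them the CD4 libraries alone (-0.58, adjusted p = 0.269 in edgeR), the stricter myeloid limit (-0.51) and leaving out Lag3KO_CD4 1 (-0.65), Lag3KO_CD4 2 (-0.70) or the library labelled WT_CD45 2 (-0.79). Among cells low in myeloid RNA Ifng passed as lower (-2.02).

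Receptors differed little. Ifnar1 (0.38 ± 0.16, adjusted p = 0.192) and Ifnar2 (0.42 ± 0.22, adjusted p = 0.323), the chains of the type I receptor, did not pass in edgeR. Ifngr2, a chain of the interferon gamma receptor that is abundant on myeloid cells, had 12.6, 48.1 and 105 CPM in interferon-responding cells and 12.4, 17.9 and 61.6 CPM in interferon-low T cells (1.11 ± 0.29, adjusted p = 0.017). It was the 1 of 5 tested receptor genes that was higher, and none of 4 receptor genes passed among cells low in myeloid RNA. In the CD45 libraries alone 1 of 5 was higher, Ifnar2, and in the CD4 libraries alone 0 of 5 passed.

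Signal transducers differed among themselves. Of 13 tested 8 were higher, 0 lower, with a median of 0.57, and among cells low in myeloid RNA 4 of 12 were higher. Irf7, the factor that amplifies type I interferon production, had 304, 369 and 477 CPM in interferon-responding cells and 42.2, 70.9 and 148 CPM in interferon-low T cells (2.21 ± 0.15, adjusted p = 1.28e-10). Irf7 did not overlap between classes.

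Stat2 was higher by 1.97 ± 0.24 and Irf9, its partner in the complex, by 0.61 ± 0.15 (adjusted p = 0.0119), with the Irf9 call lost in 5 of 17 alternatives. Irf1 differed by 0.55 ± 0.12 and Stat3 by 0.42 ± 0.12, both past the threshold. The receptor kinases Jak1 (-0.10 ± 0.11, adjusted p = 0.768) and Tyk2 (0.16 ± 0.36, adjusted p = 0.879) and the factor Irf3 (0.02 ± 0.21, adjusted p = 0.99) did not pass in edgeR. Irf8 (1.18 ± 0.20), a factor of myeloid and B cells, passed in all libraries but had 0.44 (adjusted p = 0.521) under the stricter myeloid limit.

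Sensors of viral RNA were higher as a trio. Dhx58 (LGP2) had 24.1, 58.1 and 70.1 CPM in interferon-responding cells and 4.87, 7.48 and 12.4 CPM in interferon-low T cells (2.50 ± 0.25), Ifih1 (MDA5) differed by 2.09 ± 0.24 and Ddx58 (RIG-I) by 1.99 ± 0.21, with adjusted p at most 1.22e-06 in edgeR. None of the 3 overlapped between classes, and all 3 passed among cells low in myeloid RNA. Dhx58 and Ifih1 reached at most 12.4 and 17.8 CPM in interferon-low T cells and entered the test through the class where they were high. The sensors of DNA Mb21d1 (cGAS, 1.03 ± 0.52, adjusted p = 0.301), Tmem173 (STING, 0.41 ± 0.15, adjusted p = 0.122) and Aim2 (0.01 ± 0.26, adjusted p = 0.995) did not pass.

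The PYHIN family, which includes DNA-binding proteins coded in a cluster on chromosome 1, was higher in 6 of 6 tested, and in 4 of 4 among cells low in myeloid RNA. Ifi205, 1 of the 6, had 33 UMIs in 19 interferon-responding cells and 3 UMIs in interferon-low T cells, so it entered the test through the class where it was high. Ifi204 had 63.0, 112 and 248 CPM in interferon-responding cells and a median of 9.30 and a highest level of 26.4 CPM in interferon-low T cells (3.83 ± 0.24), and Mnda was higher by 3.80 ± 0.40. The Schlafen family, whose members act on T cell quiescence in mice or on translation, was higher in 5 of 5 tested, from Slfn2 (0.56 ± 0.09) to Slfn4 (4.51 ± 0.91), and in 4 of 4 among cells low in myeloid RNA, where Slfn4 was not tested. Slfn4, a myeloid gene, rested on 31 UMIs in 10 interferon-responding cells and 3 UMIs in interferon-low T cells.

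Genes of the ISG15 pathway and of negative feedback were higher in 8 of 13 tested, with 0 lower and a median of 0.93, and in 6 of 13 among cells low in myeloid RNA. Usp18 removes ISG15 from proteins and blocks the type I receptor, and had 100.4, 151 and 186 CPM in interferon-responding cells and 1.33, 6.45 and 18.5 CPM in interferon-low T cells (4.31 ± 0.25, adjusted p = 1.08e-11), with no overlap. The enzymes that attach ISG15, Uba7 (1.04 ± 0.18), Ube2l6 (2.47 ± 0.18) and Herc6 (2.24 ± 0.18), were all higher (adjusted p at most 0.000382 in edgeR). Socs1, which restrains JAK kinases, was higher by 0.79 ± 0.12 with overlapping ranges, while Socs3 (0.39 ± 0.19, adjusted p = 0.28), Cish (-0.01 ± 0.13, adjusted p = 0.988) and Ptpn2 (-0.42 ± 0.22, adjusted p = 0.335) did not pass.

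Genes that interferon gamma also induces were higher in 14 of 15 tested, with a median of 1.58, and in 10 of 13 among cells low in myeloid RNA. Gbp2, a GTPase that attacks vacuoles of pathogens, had 206, 311 and 478 CPM in interferon-responding cells and 68.1, 98.1 and 118 CPM in interferon-low T cells (1.72 ± 0.13, adjusted p = 7.12e-10). Iigp1, a related GTPase, was higher by 2.46 ± 0.23, with no overlap. Cxcl10, a chemokine that attracts CXCR3-bearing T cells and that myeloid cells make in quantity, had 46.7, 136 and 314 CPM against 6.45, 14.4 and 43.8 CPM (2.95 ± 0.28) but was found in 65 of 437 interferon-responding cells. Cxcl9, another such chemokine, was higher by 3.82 ± 0.31 with overlapping ranges and was found in 23 of 437.

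MHC class I and its peptide supply, which interferons of both types raise, were higher in 15 of 19 tested, by a smaller median of 0.51, and in 8 of 18 among cells low in myeloid RNA. H2-T22, a non-classical class I gene, had 366, 489 and 767 CPM in interferon-responding cells and 202, 271 and 352 CPM in interferon-low T cells (1.00 ± 0.09, adjusted p = 1.04e-08), with no overlap. Tap1, a peptide transporter chain, differed by 0.75 ± 0.11 and Psmb9, an immunoproteasome subunit, by 0.62 ± 0.09. B2m, the shared light chain, differed by 0.30 ± 0.05 (adjusted p = 6.06e-05), and the classical gene H2-K1 by 0.11 ± 0.06 (adjusted p = 0.301), which did not pass.

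**Figure D4:**
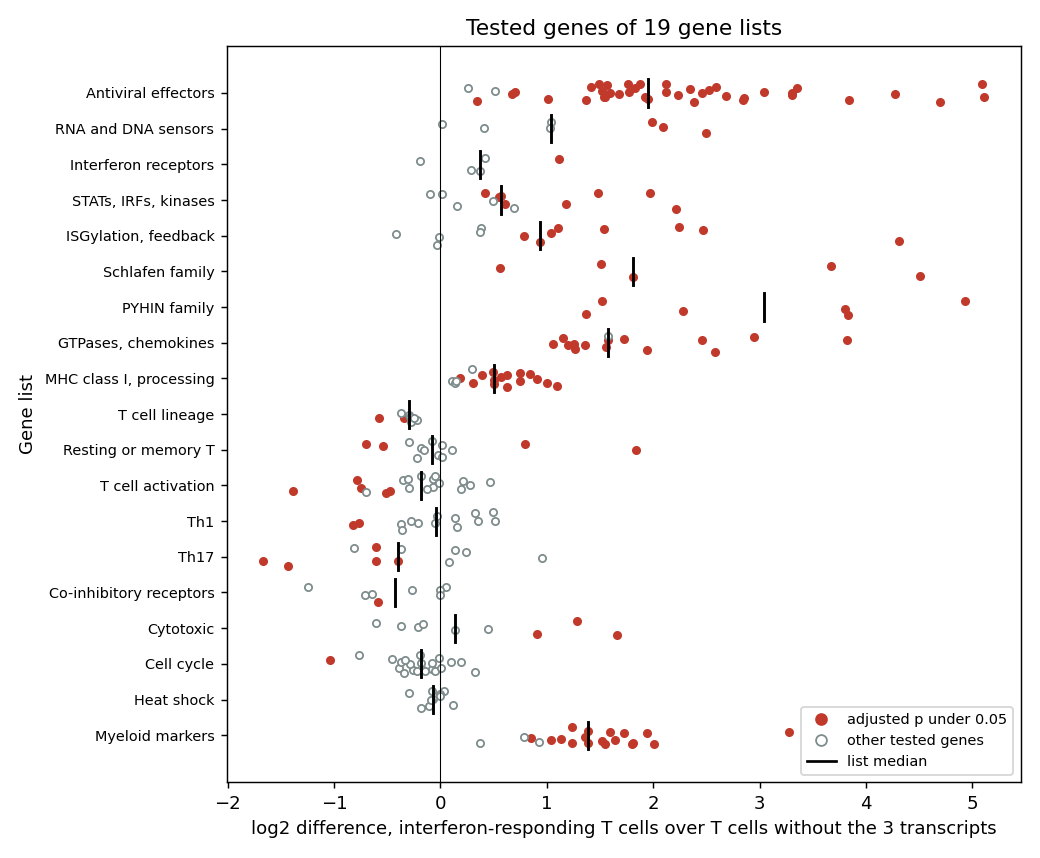
log2 difference of interferon-responding over interferon-low T cells (x axis) for the tested genes of 19 gene lists (y axis), 1 point a gene, with the list median marked. The antiviral list has a median of 1.95, MHC class I 0.51 and the lists of T cell lineage and state (Th1, Th17 and others) between -0.42 and 0.14, while the myeloid list has a median of 1.38.

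Genes of T cell identity and state were read next. Of 8 tested T cell lineage genes 0 were higher and 2 lower, Thy1 (-0.58 ± 0.12, adjusted p = 0.00197) and Lat (-0.34 ± 0.09, adjusted p = 0.0199), against 1.94% of all tested genes lower. Among cells low in myeloid RNA and in the CD4 libraries alone 1 of 8 was lower, Thy1. The summed level of the 8 lineage genes was 3981 to 4355 CPM in interferon-responding cells and 4540 to 4849 CPM in interferon-low T cells of the CD4 libraries. In the CD45 libraries, where the myeloid markers were at their highest, it was 1902 to 2719 CPM and 3655 to 3943 CPM, 0.498 to 0.689 times as high within a library. The part of myeloid RNA in this was not tested. Cd4 was at 154 to 262 CPM in interferon-responding cells and 222 to 296 CPM in interferon-low T cells (-0.22 ± 0.12, adjusted p = 0.363). Foxp3, the regulatory T cell factor, had 4 UMIs in 437 interferon-responding cells and 15 in 2814 interferon-low T cells, a gate without Ikzf2 having been applied to both.

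Cytokine genes were among the lower genes. Csf2, the cytokine GM-CSF that drives this disease in mice, had 0, 3.89 and 92.4 CPM in interferon-responding cells and 7.97, 42.7 and 210 CPM in interferon-low T cells (-1.67 ± 0.45, adjusted p = 0.0186). Csf2 UMIs were in 6 of 437 interferon-responding cells and 100 of 2814 interferon-low T cells. The Csf2 call was lost without Lag3KO_CD4 2 (-0.56, adjusted p = 0.249 in edgeR) and in DESeq2 (adjusted p = 0.353).

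Lta, the cytokine lymphotoxin alpha, ran from 17.7 to 35.0 CPM in interferon-responding cells and from 49.1 to 99.3 CPM, with a median of 73.0 CPM, in interferon-low T cells (-1.51 ± 0.21, adjusted p = 1.72e-05). Lta did not overlap between classes and was lower under all 17 alternatives. Tnfsf11 (RANKL, -1.39 ± 0.25) and Egr2, a factor induced through the T cell receptor (-1.39 ± 0.26, adjusted p = 6e-04), were lower with overlapping ranges. The Tnfsf11 call was lost in the CD45 libraries alone (-0.59, adjusted p = 0.276 in edgeR) and among cells low in myeloid RNA, and the Egr2 call in the CD45 libraries alone. Cxcr6, a chemokine receptor of effector T cells in tissue, had 201, 349 and 418 CPM against 428, 576 and 675 CPM (-0.75 ± 0.10, adjusted p = 1.47e-05), with no overlap.

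Of 19 tested activation genes 5 were lower and 0 higher, in the CD4 libraries alone 3 of 20 were lower, and among cells low in myeloid RNA 1 of 16 was, Cxcr6. Cd69 (0.19 ± 0.11, adjusted p = 0.39) and Cd44 (-0.35 ± 0.13, adjusted p = 0.123) did not pass. Of 14 Th1 genes 2 were lower, Ifng and Tnf (-0.77 ± 0.20, adjusted p = 0.0156), and 0 higher. In the CD4 libraries alone 0 of 14 passed, and among cells low in myeloid RNA Ifng and Ccl4 were lower. The Tnf call was lost in 5 of 17 alternatives, among them leaving out Lag3KO_CD4 2 (-0.54) and each enrichment alone. Tbx21, the Th1 factor, differed by 0.35 ± 0.25 (adjusted p = 0.52). Of 11 Th17 genes 5 were lower (Csf2, Il1r1, Tmem176a, Tmem176b and Rora) and 0 higher. This tally held over both enrichments together: in the CD4 libraries alone 2 of 11 were lower (Csf2 and Tmem176b) and 2 higher (Il17a and Il17f), in the CD45 libraries 2 of 6 were lower, and among cells low in myeloid RNA 1 of 8 was, Csf2. Il17a went opposite ways by enrichment, with 1.67 (adjusted p = 3.16e-05) in the CD4 libraries and -1.80 (adjusted p = 0.0118) in the CD45 libraries in edgeR, and 0.25 ± 0.41 (adjusted p = 0.831) over both. The difference between the enrichments was not tested, and Il17a UMIs were in 25 of 437 interferon-responding cells and 122 of 2814 interferon-low T cells.

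The other lower genes with the largest differences were Lgals7, a galectin, Camk2n1, an inhibitor of a calmodulin-dependent kinase, Ramp1, which pairs with the receptor of the neuropeptide CGRP, Ruvbl2, an ATPase of chromatin complexes, Klrc1, the inhibitory receptor NKG2A, and Nrgn, a calmodulin-binding protein. Lgals7 had 0, 7.78 and 30.6 CPM in interferon-responding cells and 13.1, 40.9 and 161 CPM in interferon-low T cells (-2.04 ± 0.40, adjusted p = 0.0011), and Ramp1 had 26.2, 94.5 and 314 CPM against 54.8, 269 and 589.7 CPM (-1.17 ± 0.13, adjusted p = 4.3e-07). All 6 overlapped between classes. The calls of Ruvbl2 (-1.14 ± 0.30) and Klrc1 (-1.08 ± 0.31) were lost in 7 of 17 and 9 of 16 alternatives, and those of Lgals7 and Camk2n1 in 2 of 16 each.

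Some surface and cytotoxic genes were higher. Of 9 tested cytotoxic genes 3 were higher and 0 lower, but only 5 were positive, with a median log2 difference of 0.14. In the CD45 libraries alone 0 of 9 were higher and 1 was lower, Klrd1. Among cells low in myeloid RNA 2 of 9 were higher, Gzmb and Gzmk, with a median of -0.19. Ly6c2, a surface antigen of memory T cells and monocytes, had 301, 693 and 883 CPM in interferon-responding cells and 93.8, 147 and 222 CPM in interferon-low T cells (1.84 ± 0.16, adjusted p = 8.65e-09), with no overlap, and passed among cells low in myeloid RNA too. Gzmb, the granule protease granzyme B, had 58.1, 225 and 639 CPM against 35.9, 91.7 and 144 CPM (1.66 ± 0.20, adjusted p = 2.66e-06), and Gzmk differed by 0.91 ± 0.17. Both granzymes overlapped between classes and lost the call in the CD45 libraries alone (Gzmb 0.65, adjusted p = 0.117; Gzmk 1.37, adjusted p = 0.11 in edgeR).

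Cd8b1, the partner of the gated Cd8a, was higher by 1.28 ± 0.31 (adjusted p = 0.00856) and was found in 25 of 437 interferon-responding cells and 81 of 2814 interferon-low T cells. Its call was lost in 4 of 16 alternatives, among them the CD45 libraries alone (0.78, adjusted p = 0.429 in edgeR) and leaving out Lag3KO_CD4 1 (0.95), and it was not tested among cells low in myeloid RNA. Of 8 tested co-inhibitory receptors 1 was lower, Cd96 (-0.58 ± 0.17), and 0 were higher; Pdcd1, the receptor PD-1, differed by 0.05 ± 0.15 (adjusted p = 0.919). Of 22 cell cycle genes 1 was lower, Rrm2, and 0 were higher. Of 10 heat shock genes 0 passed.

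Genotype took no part in the rule, and was compared within the interferon-responding cells with enrichment as a term (3 Lag3KO and 4 WT libraries). The label of WT_CD45 2 was kept in every genotype test although its Lag3 level goes against it, and each count is given below without it as well. Lag3 had 0 UMIs in Lag3KO_CD4 1, Lag3KO_CD4 2 and Lag3KO_CD45 1, where 3 UMIs over the 3 libraries would be 3.30 CPM. The WT_CD4 libraries had 13 and 5 Lag3 UMIs (54.6 and 19.5 CPM) and WT_CD45 1 had 7 (41.3 CPM). The library labelled WT_CD45 2 had 0 Lag3 UMIs. Only WT_CD4 1, WT_CD4 2 and WT_CD45 1 thus held Lag3 UMIs in interferon-responding cells. In the small CD45 sums a count of 0 says less. There 3 UMIs would be 24.1 CPM in Lag3KO_CD45 1 and 17.4 CPM in the library labelled WT_CD45 2, close to the 19.5 CPM of WT_CD4 2. A 3′ tag outside the deleted exons would not show a deletion. Lag3 lies at chromosome 6, 124904361 to 124911705 (GRCm38).

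No gene passed between genotypes in interferon-responding cells. Of 3792 tested genes 0 passed in edgeR (0%), 145 had an unadjusted p under 0.05, and DESeq2 called 2, C1qb and C1qc. Without the library labelled WT_CD45 2, 0 of 3753 genes passed in edgeR, with 122 at an unadjusted p under 0.05. These complement genes of macrophages and microglia, C1qb being one the gate limits, were higher in Lag3KO by 1.73 ± 0.47 and 2.02 ± 0.53, with adjusted p of 0.519 and 0.516 in edgeR. C1qc was at 219 and 69.97 CPM in Lag3KO_CD4 and 2167 CPM in Lag3KO_CD45, and at 8.40 and 3.89 CPM in WT_CD4 and 1269 and 668 CPM in WT_CD45. Under the stricter myeloid limit C1qc differed by -0.03.

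No interferon gene passed between genotypes. The fit held 42 antiviral genes, genes of the rule among them, of which 0 passed and 13 were positive. Their median was -0.17 in Lag3KO over WT, against 0.01 over all tested genes. Since the rule used some of these genes, this tally is a description and not a test of the group. Isg15 had 1218 and 1288 CPM in Lag3KO_CD4 and 883 CPM in Lag3KO_CD45, and 1146 and 1467 CPM in WT_CD4 and 892 and 1539.5 CPM in WT_CD45. Isg15 levels overlapped between genotypes, and they are a description from which no test is read, since the rule used Isg15. Zbp1 differed by 0.00 ± 0.18, Irf7 by -0.03 ± 0.22 and Rsad2 by -0.53 ± 0.29, and none of them passed in edgeR.

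Tpm3-rs7, a near copy of the tropomyosin gene Tpm3 with which it can share reads, separated the genotypes in the CD4 libraries. It was at 289 and 321 CPM in Lag3KO_CD4 and 104 CPM in Lag3KO_CD45, and at 8.40 and 11.7 CPM in WT_CD4, 142 CPM in WT_CD45 1. The library labelled WT_CD45 2 had 23.2 CPM of Tpm3-rs7. Over all libraries its difference was 2.71 ± 0.69 (adjusted p = 0.516), and in the CD4 libraries alone 4.86 (adjusted p = 0.00254 in edgeR). It was 2.54, and again did not pass, without the library labelled WT_CD45 2, but passed without WT_CD45 1 (4.11, adjusted p = 0.00457) and without Lag3KO_CD45 1 (4.87, adjusted p = 0.0412). Tpm3 went the other way, with 73.1 and 96.2 CPM in Lag3KO_CD4 and 344 and 339 CPM in WT_CD4. Interferon-low T cells of the same libraries had 306, 340 and 138 CPM of Tpm3-rs7 in Lag3KO and 5.34, 4.91, 175 and 18.6 CPM in WT, again higher in both Lag3KO_CD4 than in both WT_CD4 libraries.

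Among interferon-low T cells 0 of 8158 genes passed between genotypes in edgeR (336 with an unadjusted p under 0.05; DESeq2 called 0), and 0 of 8216 without the library labelled WT_CD45 2 (289 with an unadjusted p under 0.05). Among interferon-responding cells 0 of 4570 genes passed for a genotype difference that differed between enrichments (198 with an unadjusted p under 0.05; DESeq2 called 0), and 0 of 4581 without the library labelled WT_CD45 2 (205 with an unadjusted p under 0.05).

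The genotype difference itself differed between the T cell classes for 3 of 6484 genes (0.0463%; 278 with an unadjusted p under 0.05). Of these, 2 had a higher difference in interferon-responding cells (0.0308%), Xcl1 and Ccl3, and 1 a lower one (0.0154%), Ifitm1, which alone was called by DESeq2. Without the library labelled WT_CD45 2 the count was 8 of 6293, these 3 among them. It was also 8 without WT_CD45 1, and 6 without WT_CD4 2 or Lag3KO_CD4 1. Ifitm1 in interferon-responding cells was at 359 and 91.8 CPM in Lag3KO_CD4 and 64.2 CPM in Lag3KO_CD45, and at 748 and 331 CPM in WT_CD4 and 272 and 168 CPM in WT_CD45. Ifitm1 in interferon-low T cells was at 385, 175 and 360.0 CPM in the same Lag3KO libraries and at 151, 58.1, 193 and 146 CPM in the WT libraries. The difference of differences was -2.85 ± 0.22 (adjusted p = 1.25e-07).

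The Ifitm1 values rested on few cells. In WT_CD4 2, 63 of 85 Ifitm1 UMIs of interferon-responding cells were in 1 of 5 cells with any, and without that cell the level was 88.0 CPM. Under the stricter myeloid limit the Ifitm1 difference of differences was -1.12 (adjusted p = 0.121 in edgeR), and among CD4 library cells low in myeloid RNA 0.09.

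Xcl1, a chemokine of cytotoxic and natural killer cells, was at 0 and 0 CPM in interferon-responding cells of Lag3KO_CD4 and 1789 CPM in those of Lag3KO_CD45, and at 25.2, 0, 0 and 5.81 CPM in those of the WT libraries. In Lag3KO_CD45, 222 of 223 Xcl1 UMIs were in 1 cell, without which the level was 8.69 CPM. The Xcl1 difference of differences was 6.33 ± 0.91 (adjusted p = 0.00276), and -4.95 (adjusted p = 1 in edgeR) without that library.

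Ccl3, a chemokine of macrophages and stimulated T cells, was at 12.2 and 0 CPM in interferon-responding cells of Lag3KO_CD4 and 361 CPM in those of Lag3KO_CD45, and at 0, 0, 106 and 98.8 CPM in those of the WT libraries. Its difference of differences was 3.71 ± 0.59 (adjusted p = 0.0067). In Lag3KO_CD45, 31 of 45 Ccl3 UMIs of interferon-responding cells were in 1 cell (126 CPM without it), and in WT_CD45 1, 282 of 295 of interferon-low T cells were in 1 cell (599.7 CPM, and 26.9 CPM without it). Without WT_CD45 1 the Ccl3 value was 2.09 (adjusted p = 0.15 in edgeR), without WT_CD4 1 it was 3.67 (adjusted p = 0.075) and without Lag3KO_CD45 1 it did not pass (adjusted p = 1).

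**Figure D5:**
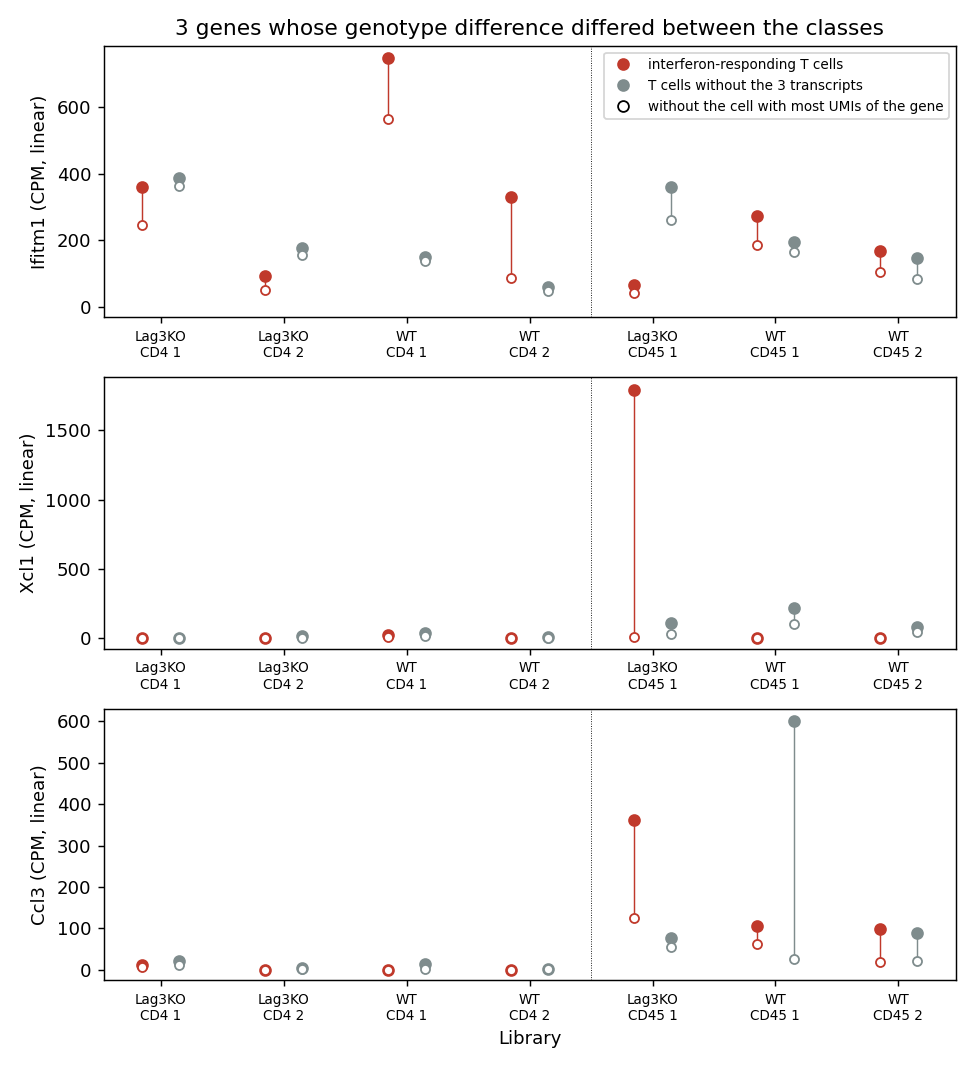
Levels of Ifitm1, Xcl1 and Ccl3 (CPM, linear y axes) in interferon-responding T cells (red) and interferon-low T cells (grey) of each library (x axis), Lag3KO left of WT within each enrichment. Open points leave out the single cell with the most UMIs of the gene; the Xcl1 level of 1789 CPM in Lag3KO_CD45 becomes 8.69 CPM.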

How the data were processed

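The authors deposited UMI counts per gene and barcode, made with Cell Ranger (version 3.0.2 per the file headers of the CD4 libraries; for the CD45 libraries not given in the sources used here) from 10x 3′ v2 libraries, with GRCm38 (mm10) and Seurat named in the submitters' processing notes. The files list 27998 or 28692 genes, and the 27998 shared ones were used. Free RNA was not removed, and doublets were left in for the main results and left out as an alternative (barcodes most like simulated doublets, 0.8% per 1000 barcodes). Those barcodes held 3 and 2 interferon-responding cells in Lag3KO_CD4 and 2 and 1 in WT_CD4. Of the interferon-low T cells, a larger class in every library, they held 1 and 1 in Lag3KO_CD4 and 2 and 2 in WT_CD4. In the CD45 libraries they held 0 cells of either class.

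Counts were summed per library and class (at least 10 cells). edgeR 4.0.16 in R 4.3.3 (quasi-likelihood, TMM, filterByExpr, two-sided, Benjamini-Hochberg at 0.05 over all genes tested) was the main test, with the library as block between classes and enrichment as a term between genotypes; DESeq2 1.42.0 was the alternative. The genes of the rule and mitochondrial genes were removed from the tests between classes and of the genotype difference between them. Errors are SE. CPM are UMIs per 1000000 of the class. Shares were compared by exact permutation within enrichment; thinned shares are exact hypergeometric expectations. The procedure was tested on simulated data. Python 3.11.15, numpy 2.4.6 and scipy 1.17.1 were used.

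The members, lists and tests were chosen with earlier results of these data known. Named genes are the 15 higher and 10 lower with the largest difference among those that passed, with at least 20 CPM on average and the same sign in every library (298 of 572); genes of the lists were named as well, apart from some not reported here. Alternatives were other normalization, no filter on low counts, cells of 2000 to 5000 UMIs, stricter myeloid (at most 30 per 10000) and interferon (at least 3 Isg15 and 2 Ifit UMIs) limits, a looser interferon limit and another denominator for shares, each enrichment alone and each library left out. The comparison of cells low in myeloid RNA, genotype in the CD45 libraries alone and the genotype difference between enrichments were chosen after seeing the data. Trac, Trbc1, Trbc2, Mx2, Cxcl11 and 7 PYHIN genes are not analysed here. Reads of near-identical copies (Ifit3 and Ifit3b, Oas1a and Oas1g, H2-Q6 and H2-Q7, Tpm3 and Tpm3-rs7) cannot be told apart.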

Additional observations from a re-analysis of the deposited data

Results flagged for a closer look

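The genotype difference (Lag3KO minus WT) in interferon-responding T cells differed from that in interferon-low T cells for 3 genes, by a test of the difference itself in edgeR. Ifitm1 had a difference of differences of -2.85 on the log2 scale. Xcl1 had one of 6.33, with 222 of the 223 UMIs of interferon-responding cells of Lag3KO_CD45 in 1 cell. Ccl3 had one of 3.71, with 31 of 45 such UMIs in 1 cell. The values in each library are in the report, and the part of single cells or of myeloid RNA in them was not tested beyond the values given there.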

How the results depend on the processing

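The share difference of 1.97 points between Lag3KO and WT became -0.72 in the CD45 libraries alone and was 0.511 to 3.44 with each library left out, 0.451 and 3.81 under the stricter and looser interferon limits and 3.58 in cells of 2000 to 5000 UMIs. Between interferon-responding and interferon-low T cells 572 genes passed, and 488 with doublets left out (483 of them among the 572). The count was 291 in cells of 2000 to 5000 UMIs (232 of them among the 572), 282 under the stricter myeloid limit (242), 156 in CD4 library cells low in myeloid RNA (138), 313 in the CD4 and 353 in the CD45 libraries alone, 404 to 528 with each library left out, and 448 in DESeq2 (427); with no filter on low counts it was 766 (528). The genotype count in interferon-responding cells, 0, was 2 in DESeq2, 51 with no filter, 1 in cells of 2000 to 5000 UMIs, 3 under the stricter myeloid limit, 1 in cells low in myeloid RNA, 1 in the CD4 and 42 in the CD45 libraries alone (1 Lag3KO against 2 WT), and 0 to 1 with a library left out. In interferon-low T cells, also 0, it was 84 with no filter, 4 by UMI range, 2 under the stricter myeloid limit, 2 in cells low in myeloid RNA, 2 in the CD4 and 73 in the CD45 libraries alone, and 0 to 2 with a library left out. The 3 genes whose genotype difference differed between classes were 1 in DESeq2, 7 with another normalization, 22 with no filter, 5 by UMI range, 13 under the stricter myeloid limit, 8 under the stricter interferon limit, 1 in cells low in myeloid RNA, 6 in the CD4 libraries and 2 to 8 with a library left out. The genotype difference between enrichments, 0 genes, was 15 with no filter and 0 to 1 with a library left out.

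Of 1312 pairs of a named gene and an alternative, 1180 kept direction and side of the threshold, 92 lost the call, 24 gained one and 16 reversed. Between the classes, Ifitm1 (0.52) reversed to -1.15 by UMI range, -0.38 under the stricter myeloid limit, -2.52 in cells low in myeloid RNA and -0.34 in the CD45 libraries; Il17a (0.25) to -1.61 by UMI range, -0.31 without Lag3KO_CD4 2 (up to 0.74 with another library left out) and -1.80 in the CD45 libraries; and under the stricter myeloid limit Fcer1g became -0.89 and Tyrobp -0.31. C1qc between genotypes was -0.0276 under the stricter myeloid limit. The difference of differences of Ifitm1 was 0.0923 in cells low in myeloid RNA, and that of Xcl1 -6.01 by UMI range, -5.43 and -1.58 under the stricter myeloid and interferon limits, -4.95 without Lag3KO_CD45 1 (up to 9.41 with another left out) and -5.29 in the CD4 libraries. Their causes were not tested. A library left alone in its group is assumed to vary like the others. No paired analysis was possible because replicate numbers follow the order of the samples and name no shared animal or batch; the block between classes is the library itself. The 20 to 26 interferon-responding cells of a CD45 library limit what those libraries can show.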

Other observations

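Markers of other cell types were also read in the interferon-responding cells. Of 5 tested plasmacytoid dendritic cell markers 1 was higher, Bst2, which interferon induces in many cell types. Of 4 tested B cell markers 1 was lower, Cd79a (-2.16 ± 0.52, adjusted p = 0.011 in edgeR), and of 3 neutrophil markers and 1 natural killer marker 0 passed. Hbb-bs, a haemoglobin gene, was lower. Of 12 immediate early genes 2 were higher (Ier3 and Zfp36) and 3 lower (Btg2, Junb and Ier2).

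Of 6 tested genes of follicular helper T cells and 10 of regulatory T cells, Izumo1r (folate receptor 4, in both lists) was higher by 0.67 ± 0.16 (adjusted p = 0.00758 in edgeR) but lost the call in 6 of 17 alternatives. Areg, a growth factor of tissue regulatory T cells and myeloid cells, was higher by 2.05 ± 0.55 (adjusted p = 0.0204 in edgeR) with 39 UMIs in 7 interferon-responding cells. Klrg1, a receptor of late effector cells, was lower by -1.52 ± 0.46 (adjusted p = 0.0399 in edgeR). Among resting and memory genes Ly6c2 was higher and Klf2 (-0.54 ± 0.12) and Lef1 (-0.70 ± 0.17) were lower.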
